A study of Homo sapiens with 15 samples.

Results

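The genes described here were 34 genes of cholesterol and fatty acid metabolism in K562 cells, out of 60649 genes in the count table. They were chosen by name, with no measured value in the rule, but earlier results of these data were known when they were chosen. They fall into 4 lists: 18 enzymes of sterol synthesis, 6 regulators of the SREBP transcription factors, 7 enzymes of fatty acid synthesis and 3 genes of sterol efflux. All 34 symbols were found through their Ensembl identifiers and all 34 were among the 23711 genes with enough counts to test. ABCG1 passed that filter only through the treated libraries.

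K562 is an immortal human line started from a chronic myeloid leukaemia, and the samples are labelled as bone marrow. Messenger RNA was sequenced from untreated cells and from cells kept for 24 h in martinostat, which inhibits histone deacetylases (HDACs), at 4 doses (0.15 µM, 0.25 µM, 0.5 µM or 1 µM), with 3 libraries labelled as biological replicates in each of the 5 groups. All groups, the untreated one included, were grown in medium with heat-inactivated fetal bovine serum, and the labels do not say whether the untreated cells received the solvent. The question asked of these genes was which of them differed between doses, and at which dose. The study covers a single cell line at a single time, and because cells were measured in bulk, a smaller share of cells expressing a gene cannot be told apart from less RNA per cell.

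Cells make cholesterol from acetyl-CoA through mevalonate, squalene and lanosterol, and make fatty acids from the same acetyl-CoA through malonyl-CoA. Both routes are transcribed under the SREBP factors, which SREBF1 and SREBF2 encode. SREBP precursors are held in the endoplasmic reticulum by SCAP and the INSIG proteins when sterols are plentiful, and are carried to the Golgi and cut when sterols run short. When sterols are in excess, a separate nuclear receptor pair, LXR with RXR, raises the efflux pumps ABCA1 and ABCG1 and the ubiquitin ligase MYLIP.

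Library totals ranged from 23755510 to 32805574 counts. Levels are given as CPM, counts scaled to a common library size with TMM (trimmed mean of M values) factors. The composition of the libraries differed with treatment, since the TMM factors were 0.784 to 0.828 in the untreated libraries and 0.95 to 1.28 in the treated ones, and the choice of scaling therefore moved all fold changes together. Under TMM the median log2 fold change over all tested genes was 0.32 at 1 µM, and it was 0.67 with library totals alone. Replicate 3 at 0.25 µM and replicate 3 at 0.5 µM stood apart on principal component 3, at 70.1 and 75.4, when all other libraries were at 16.0 or lower. The erythroid marker genes KLF1, HEMGN, ALAS2, TAL1 and LMO2 were present in untreated cells at 122 (TAL1) to 406 (KLF1) CPM, and all 5 were called lower at 0.5 and 1 µM. Of 4 markers of other cell types, MS4A1 was at 0 in all untreated libraries, CD3E and ALB were at 0.54 and 15.8 CPM and EPCAM was at 141.1 CPM. At 1 µM EPCAM and ALB were called lower. Counting also what is not reported here, 1 tested marker of other cell types was called higher at 1 µM and 3 at 0.15 µM. The part of such changes in the results below was not tested.

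For orientation, 3 promoters are shown, those of a regulator that fell (SREBF2) and of a regulator and an enzyme that rose (INSIG1 and TM7SF2). They are RefSeq promoter windows on GRCh38.p14, from 250 bases before to 50 bases after the start of the gene, on the plus strand of chr22:41832855-41833154, chr7:155297628-155297927 and chr11:65111622-65111921. Capitals mark the core of a sterol regulatory element (TCACNCCAC) and the CCAAT box, which reads ATTGG on the other strand.
SREBF2: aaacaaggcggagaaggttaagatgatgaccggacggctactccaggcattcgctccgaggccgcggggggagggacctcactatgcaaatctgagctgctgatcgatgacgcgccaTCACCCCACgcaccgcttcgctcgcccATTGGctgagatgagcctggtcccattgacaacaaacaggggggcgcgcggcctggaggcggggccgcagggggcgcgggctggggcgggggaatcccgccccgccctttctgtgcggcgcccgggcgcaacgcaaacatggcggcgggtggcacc
INSIG1: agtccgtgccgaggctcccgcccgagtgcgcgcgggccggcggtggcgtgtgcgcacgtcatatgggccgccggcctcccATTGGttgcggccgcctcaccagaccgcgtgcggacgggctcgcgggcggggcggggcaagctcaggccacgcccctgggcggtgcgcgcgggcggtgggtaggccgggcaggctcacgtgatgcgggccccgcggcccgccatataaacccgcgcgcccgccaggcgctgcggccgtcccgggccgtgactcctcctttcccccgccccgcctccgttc
TM7SF2: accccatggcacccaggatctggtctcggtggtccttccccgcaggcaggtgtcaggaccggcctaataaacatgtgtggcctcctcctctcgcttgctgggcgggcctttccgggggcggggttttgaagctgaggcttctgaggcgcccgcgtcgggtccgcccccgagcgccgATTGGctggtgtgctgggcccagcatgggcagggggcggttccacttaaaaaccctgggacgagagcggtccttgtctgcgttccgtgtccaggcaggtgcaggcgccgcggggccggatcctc

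Motifs were searched on both strands in 39 windows of the 29 members that the table held, several members having more than 1 start. The core occurred in a single member window, that of SREBF2, and in 1.13% of all 35116 windows. CCAAT was found in 25 of the 39 windows (34.6% of all windows) and the Sp1 box GGGCGG in 35 (45% of all windows). The letters give the content of these windows only and say nothing about binding. No promoter window was used here for ACAT2, FDFT1, SQLE, FASN or ABCG1.

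Each dose was compared with untreated cells in a single edgeR fit of all libraries (quasi-likelihood test), and calls were made where p after Benjamini-Hochberg adjustment over all tested genes was under 0.05. Across all 5 groups together 29 of the 34 genes were called, against 73.6% of all tested genes. The 4 comparisons share the untreated libraries. Here and below, counts of members called against untreated cells include ABCG1, which only the treated libraries brought into the test. At 0.15 µM 5 of the 34 genes were called higher and 11 lower, when 51.2% of all tested genes were called (31.9% higher, 19.4% lower). At 0.25 µM 6 were higher and 17 lower, against a background of 62.3% called (37.4% higher, 24.8% lower). At 0.5 µM and at 1 µM 8 were higher and 17 lower, with 66.9% (39.4% higher, 27.6% lower) and 66.2% (38.8% higher, 27.5% lower) of all tested genes called. Lower calls were more frequent among the 10128 genes whose mean reached 10 CPM, a level that 31 of the 34 members reached. Of those 31, 3 were higher and 10 lower at 0.15 µM, when 61.3% of the well expressed genes were called (21.1% higher, 40.2% lower). At 0.25 µM 4 were higher and 16 lower (background 70.7% called, 22% higher, 48.7% lower). At 0.5 µM 6 were higher and 16 lower (75.3%, 26.6% and 48.7%), and 1 µM gave the same counts (74.8%, 26.5% and 48.4%).

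The 4 lists differed in what they held. At 1 µM 10 of the 18 sterol synthesis genes were called lower and 4 higher, with a median log2 fold change of -0.36, when the median of the well expressed genes was -0.39. Of the 7 fatty acid synthesis genes 6 were lower and 0 higher, and their median was -1.74. The efflux genes ABCA1 and MYLIP were called higher, with log2 fold changes of 3.63 and 1.52. ABCG1 was higher too, but its call is no support, since only the treated libraries brought it into the test. Of the 6 SREBP regulators 1 was higher and 1 lower. Under library totals and under TMM computed on genes of at least 10 CPM the fatty acid medians stayed below 0 at all 4 doses. ABCA1 and MYLIP stayed above 0 at all 4 doses under both. The sterol synthesis median was positive at 0.15 and 0.25 µM under both scalings, and no direction is given for that list as a whole.

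**Figure D1:**
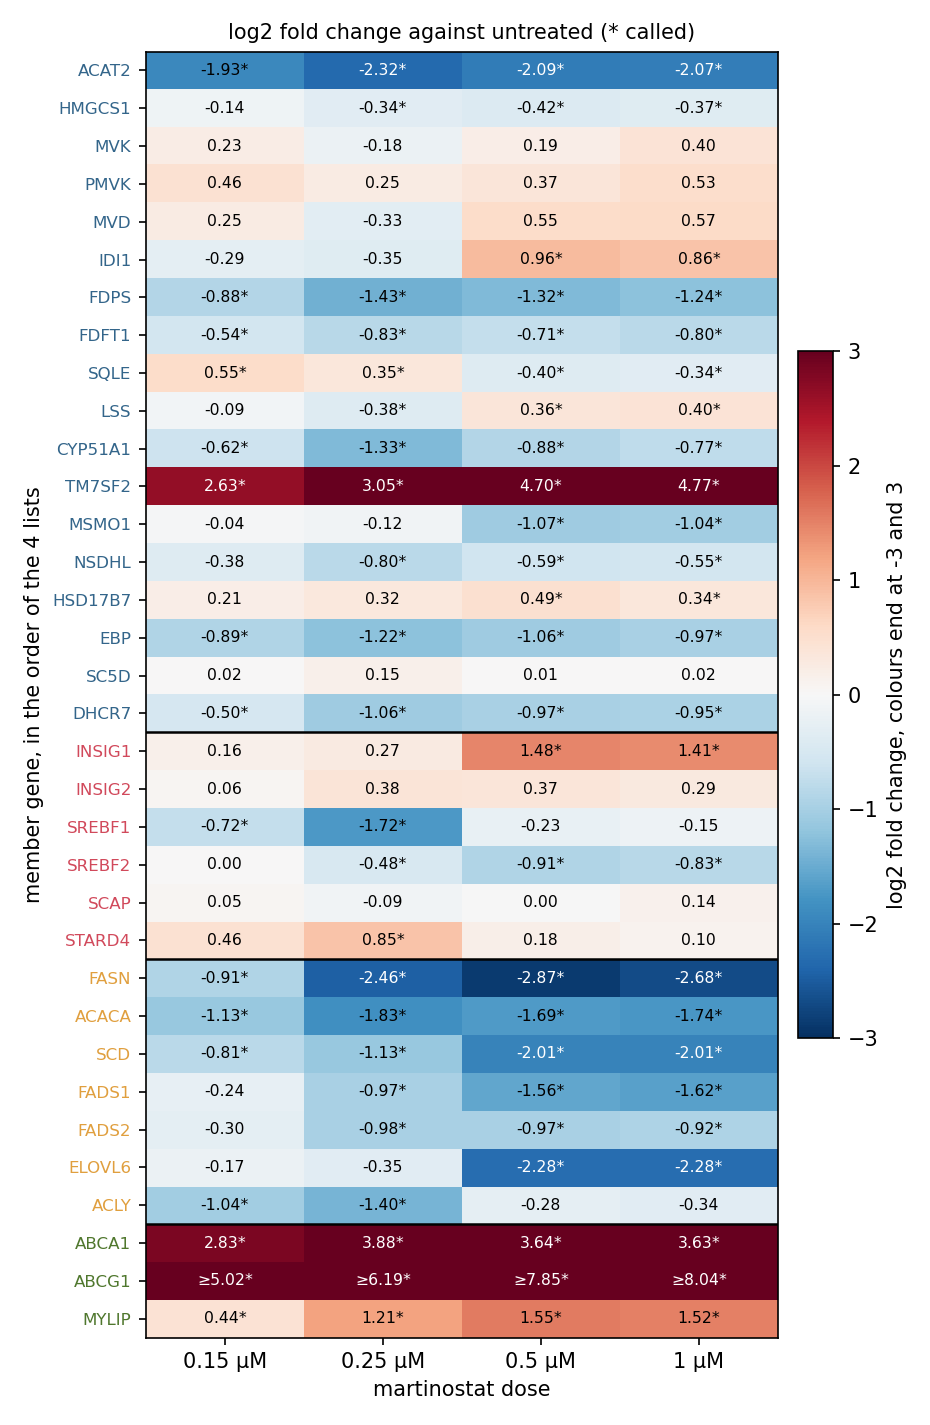
Log2 fold change of the 34 genes (rows, grouped by black lines into sterol synthesis, SREBP regulators, fatty acid synthesis and sterol efflux) at each martinostat dose against untreated cells (columns), with an asterisk where the change was called. ABCG1 had 0 counts in the untreated libraries and its cells give lower bounds. Its asterisks carry no weight, since only the treated libraries brought it into the test. The fatty acid block is blue in nearly all cells, the efflux block is red, and the sterol synthesis block holds both.

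Summed over the list, the 7 fatty acid synthesis genes stood at 4841 ± 479.7 CPM in untreated cells (SD, n = 3), and at 2687 ± 140.5, 1468 ± 227, 1257 ± 269 and 1285 ± 192 CPM from 0.15 to 1 µM. The untreated libraries lay at 4503 CPM or above and all treated libraries at 2848 CPM or below. The 18 sterol synthesis genes summed to 1736 ± 66.1 CPM in untreated cells and to 1273 ± 80.6 CPM at 0.25 µM and 1542 ± 77.1 CPM at 1 µM. These lower sums depended on the TMM scaling. As a share of all counts the same genes held 0.138% to 0.141% in the untreated libraries. The share was 0.141% to 0.151% at 0.25 µM and 0.151% to 0.165% at 1 µM. The sums are dominated by the highest genes, and no test was made on them.

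**Figure D2:**
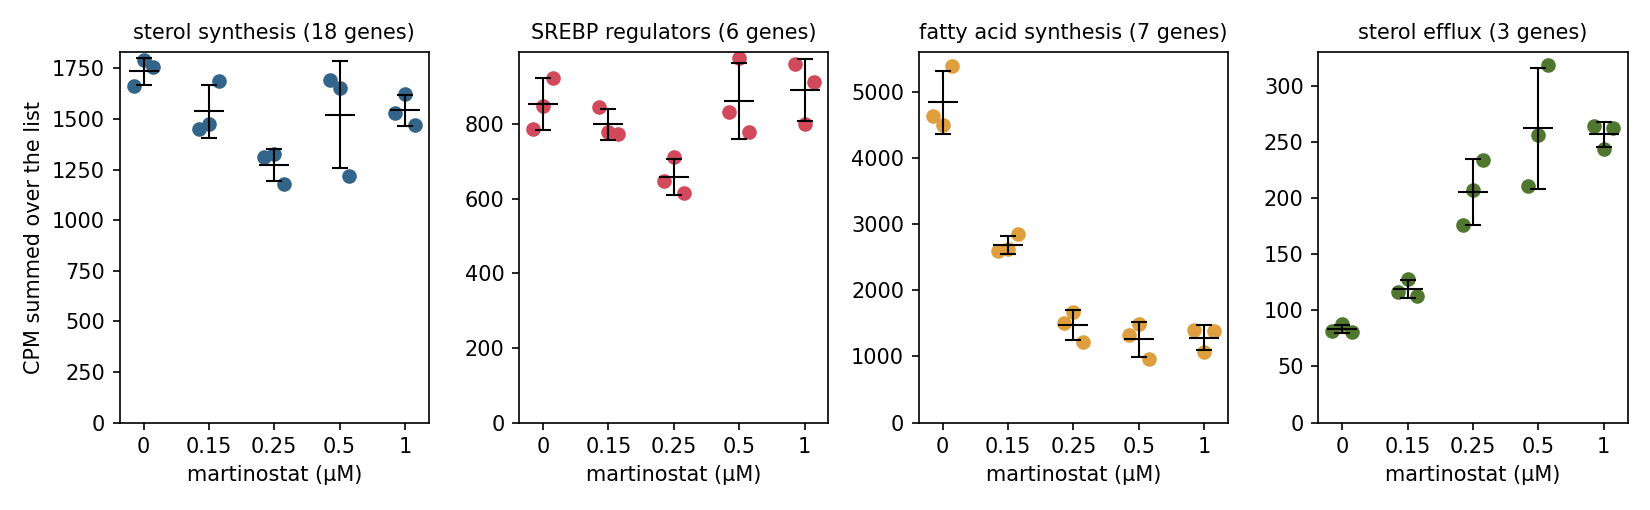
CPM summed over each of the 4 lists (vertical axes, each from 0) in every library (points) by martinostat dose, with the mean and SD of 3 libraries as bars. The fatty acid sums of all treated libraries lie below those of the untreated ones and the efflux sums lie above. The efflux sums are mostly MYLIP, which is not an exporter. Under TMM the sums of sterol synthesis and SREBP regulators were lowest at 0.25 µM, which did not hold for their shares of all counts.

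Sterol synthesis opens with ACAT2, the cytosolic thiolase that joins acetyl-CoA units. The ACAT2 level was 81.8, 92.6 and 87.8 CPM in the untreated libraries, 18.3, 22.5 and 28.2 at 0.15 µM, 16.6, 19.8 and 16.1 at 0.25 µM, 21.3, 24.2 and 16.0 at 0.5 µM and 21.4, 22.5 and 18.7 at 1 µM. Every treated library lay below every untreated one, and the 4 doses overlapped each other. In the edgeR fit the log2 fold change was -1.93 ± 0.18 (SE) at 0.15 µM (adjusted p = 4.99e-08, edgeR) and -2.07 ± 0.18 at 1 µM (6.88e-09), the largest fall among the sterol enzymes, and it was called under all 25 alternatives of processing. A gene on the opposite strand covers 22.2% of the exon bases of ACAT2, and whether the counting used strand is not stated.

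FDPS, which makes farnesyl diphosphate, the branch point to sterols and isoprenoids, fell in a similar way. Its untreated libraries held 105.8, 109.2 and 103.2 CPM, and the level was 48.1, 55.4 and 69.5 CPM at 0.15 µM, 46.8, 42.2 and 28.8 at 0.25 µM, 46.7, 47.4 and 33.1 at 0.5 µM and 43.3, 50.1 and 41.8 at 1 µM. No treated library reached the untreated range. The fitted log2 fold change was -0.88 ± 0.18 at 0.15 µM (adjusted p = 0.000572, edgeR) and -1.24 ± 0.19 at 1 µM, where FDPS was at 0.425 of the untreated level. FDPS has pseudogene copies that could share reads, and 18.6% of its exon bases are covered by a gene on the opposite strand.

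Under TMM the genes called lower at all 4 doses also included FDFT1 (squalene synthase), DHCR7 and EBP (late enzymes that reduce and isomerise the sterol ring) and CYP51A1 (the lanosterol demethylase). FDFT1 went from 332 ± 17.8 CPM in untreated cells to 228 ± 33.5 at 0.15 µM and 190.1 ± 8.94 at 1 µM. DHCR7 went from 249.6 ± 12.6 to 176.8 ± 9.28 and 128.9 ± 6.16 CPM, EBP from 43.5 ± 2.69 to 23.4 ± 8.14 and 22.3 ± 4.96, and CYP51A1 from 13.1 ± 1.71 to 8.53 ± 0.60 and 7.71 ± 0.20. The 0.15 µM calls of these 4 genes were lost under library totals, and those of CYP51A1, EBP and DHCR7 also without some single libraries, DHCR7 without any of 5 and CYP51A1 without untreated replicate 1 or 0.15 µM replicate 2. At 1 µM the CYP51A1 call was lost under library totals, and those of CYP51A1 and EBP both with TMM on genes of at least 10 CPM and with the filter of 10 counts in every library. For CYP51A1 68.2% and for EBP 36.4% of exon bases lie under another gene of the same strand, so their values are uncertain.

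MSMO1, the methylsterol monooxygenase, moved later. It was at 26.1, 35.1 and 33.5 CPM in untreated cells, 32.7, 31.3 and 28.2 at 0.15 µM and 24.2, 28.3 and 34.9 at 0.25 µM, and then at 13.7, 15.7 and 15.8 at 0.5 µM and 16.2, 14.4 and 15.4 at 1 µM. The 6 libraries of the higher doses all lay below the 9 others. Against untreated cells the log2 fold change was -0.12 ± 0.16 at 0.25 µM (adjusted p = 0.537, edgeR) and -1.04 ± 0.16 at 1 µM (1.23e-05), and between 0.25 and 0.5 µM it was -0.95 ± 0.16 (0.000151).

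TM7SF2, a sterol reductase that acts just after the lanosterol demethylase, rose more than any other enzyme of the 4 lists. It held 8.26, 6.18 and 6.69 CPM in the untreated libraries, 40.7, 33.8 and 56.3 at 0.15 µM, 81.6, 61.0 and 32.3 at 0.25 µM, 234.5, 205.5 and 109.1 at 0.5 µM and 174.3, 235.7 and 168.5 at 1 µM. All treated libraries were above all untreated ones, the 0.15 and 0.25 µM groups overlapped, and both higher doses lay above both lower doses. Its log2 fold change was 2.63 ± 0.35 at 0.15 µM (adjusted p = 1.71e-05, edgeR), 1.65 ± 0.33 between 0.25 and 0.5 µM (0.00126) and 4.77 ± 0.38 at 1 µM (2.83e-08), a 27.4-fold rise. Per kilobase of exon, its level went from 2.07 CPM, the lowest of the sterol enzymes, to 56.6 CPM.

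IDI1 (isopentenyl diphosphate isomerase) and LSS (lanosterol synthase) were also higher at the higher doses. IDI1 was at 85.9 ± 11.6, 70.4 ± 14.4 and 67.3 ± 9.47 CPM in untreated cells and at 0.15 and 0.25 µM, and at 167.3 ± 20.3 and 156.4 ± 17.1 CPM at 0.5 and 1 µM (log2 fold change between 0.25 and 0.5 µM 1.31 ± 0.17, adjusted p = 1.06e-05, edgeR). A gene on the opposite strand covers 15% of its exon bases. LSS was at 64.0 ± 2.32 CPM in untreated cells, 49.3 ± 5.28 at 0.25 µM and 84.4 ± 4.72 at 1 µM. Its call against untreated cells at 1 µM was lost without untreated replicate 1 or 3 or 1 µM replicate 1 or 3, with log2 fold changes of 0.37 to 0.45 when single libraries were left out. HSD17B7, a keto-sterol reductase with a closely similar pseudogene, was called higher at 0.5 µM (0.49 ± 0.14) under all 25 alternatives, and at 1 µM (0.34 ± 0.14) with a call that was lost without any of 11 libraries.

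SQLE, squalene epoxidase, a rate-limiting enzyme of the pathway, was the only member called in opposite directions at the lowest and highest dose, under TMM. Its level was 204.7, 217.2 and 222.1 CPM in untreated cells, 313.4, 308 and 320.6 at 0.15 µM, 267.2, 284.5 and 269.4 at 0.25 µM, 162.5, 173.0 and 154.1 at 0.5 µM and 165.3, 159.2 and 185.9 at 1 µM. The untreated libraries lay between the 2 lower doses, all above them, and the 2 higher doses, all below them. In the edgeR fit the log2 fold change was 0.55 ± 0.12 at 0.15 µM (adjusted p = 0.00100, edgeR), -0.34 ± 0.12 at 1 µM (0.0215) and -0.88 ± 0.12 between these doses (1.02e-05). Under the other scalings the value at 1 µM was 0.02 with library totals and 0.05 with TMM on genes of at least 10 CPM, neither called. The call at 1 µM was also lost under RLE scaling, under both other filters on low counts, and without untreated replicate 2 or 3 or 1 µM replicate 1 or 2, so the lower call at 1 µM is not stable. The fall between 0.15 and 1 µM was called under all alternatives. Of all tested genes 1.43% were called higher at 0.15 µM and lower at 1 µM.

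HMGCS1, the HMG-CoA synthase, and NSDHL, a sterol dehydrogenase, changed less. HMGCS1 stood at 181 ± 14.5 CPM in untreated cells and at 139.5 ± 4.35 at 1 µM, a log2 fold change of -0.37 ± 0.12 that became 0.01 with TMM on genes of at least 10 CPM and lost its call without untreated replicate 2. A gene on the opposite strand covers 37.7% of its exon bases. NSDHL stood at 105.7 ± 5.35 and 72.4 ± 1.70 CPM in the same groups, and its call at 1 µM was lost under library totals and without any of 5 single libraries.

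MVK, PMVK, MVD and SC5D were called at no dose against untreated cells under TMM. MVK (mevalonate kinase) had 35.0, 30.1 and 26.9 CPM in the untreated libraries and 38.2, 49.1 and 34.4 at 1 µM, with 32.9, 32.1 and 42.5, then 32.7, 28.4 and 20.3, then 45.9, 35.6 and 23.4 at the doses in between. PMVK (phosphomevalonate kinase) had 42.7, 36.9 and 37.96 CPM untreated, 41.1, 43.96 and 76.2 at 0.15 µM, 60.7, 48.0 and 31.0 at 0.25 µM, 69.7, 53.6 and 28.9 at 0.5 µM and 49.8, 69.9 and 50.1 at 1 µM. The groups of both genes overlapped at every dose, except PMVK at 1 µM. MVD (the mevalonate decarboxylase) had 107.4, 98.2 and 97.3 CPM untreated, 107.2, 93.4 and 159.1 at 0.15 µM, 106.1, 80.9 and 54.5 at 0.25 µM, 201.8, 147.4 and 95.6 at 0.5 µM and 145.5, 179.1 and 126 at 1 µM. Its 1 µM libraries were all above the untreated ones, its other groups overlapped them, and MVD was called higher between 0.25 and 0.5 µM (0.88 ± 0.27, adjusted p = 0.0201, edgeR), a call lost without any of 4 libraries. At 1 µM the log2 fold changes were 0.40 ± 0.22 for MVK (adjusted p = 0.120, edgeR), 0.53 ± 0.31 for PMVK (0.147) and 0.57 ± 0.27 for MVD (0.0702). At 1 µM MVK was called higher in 6 of 25 alternatives, PMVK in 7 and MVD in 13, among them library totals for all 3 (0.75, 0.88 and 0.92) and RLE scaling and DESeq2 for MVD.

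SC5D, the lathosterol desaturase, was not called in any comparison of doses with untreated cells. It had 26.5, 32.4 and 29.9 CPM in untreated libraries, 31.1, 32.0 and 27.0 at 0.15 µM, 29.2, 30.5 and 38.6 at 0.25 µM, 26.8, 30.4 and 32.0 at 0.5 µM and 29.2, 27.9 and 32.9 at 1 µM. All 5 groups overlapped, and the log2 fold change at 1 µM was 0.02 ± 0.15 (adjusted p = 0.920, edgeR). It was 0.37 with library totals, and 0.40 and called higher with TMM on genes of at least 10 CPM (adjusted p = 0.0347, edgeR).

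The wide spread of several of these genes went with a feature of the libraries, whose part in the results was not tested. In each library the deviation of each gene from its group mean was correlated across genes with exon length, and Spearman's rho ran from -0.189 to 0.148. MVK, PMVK, MVD, TM7SF2 and EBP were each highest in the library of lowest rho in all 5 groups. These were 14.7% of the members, against 842 (3.55%) of all tested genes. Exon length was 1002 bp for PMVK, 1768 for EBP, 3408 for TM7SF2, 4717 for MVD and 9018 for MVK. The median was 2772.5 bp in the 842 genes and 3840 bp in the rest. SC5D, STARD4 and ELOVL6 (10054, 5684 and 7274 bp) were highest in the library of highest rho in all 5 groups. The share of all tested genes with that pattern was not computed. With rho as a covariate MVK, PMVK and MVD were called higher at 1 µM (adjusted p = 0.0155, 0.0161 and 0.00248, edgeR). This alternative was chosen after the data were seen, and rho comes from the deviations of these same libraries. Those calls are therefore no independent support. Of all tested genes 68.3% were called at 1 µM with the covariate, in place of 66.2%. Within groups the mean coefficient of variation of MVK, PMVK and MVD was 20.8%, 27.4% and 24.1%.

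**Figure D3:**
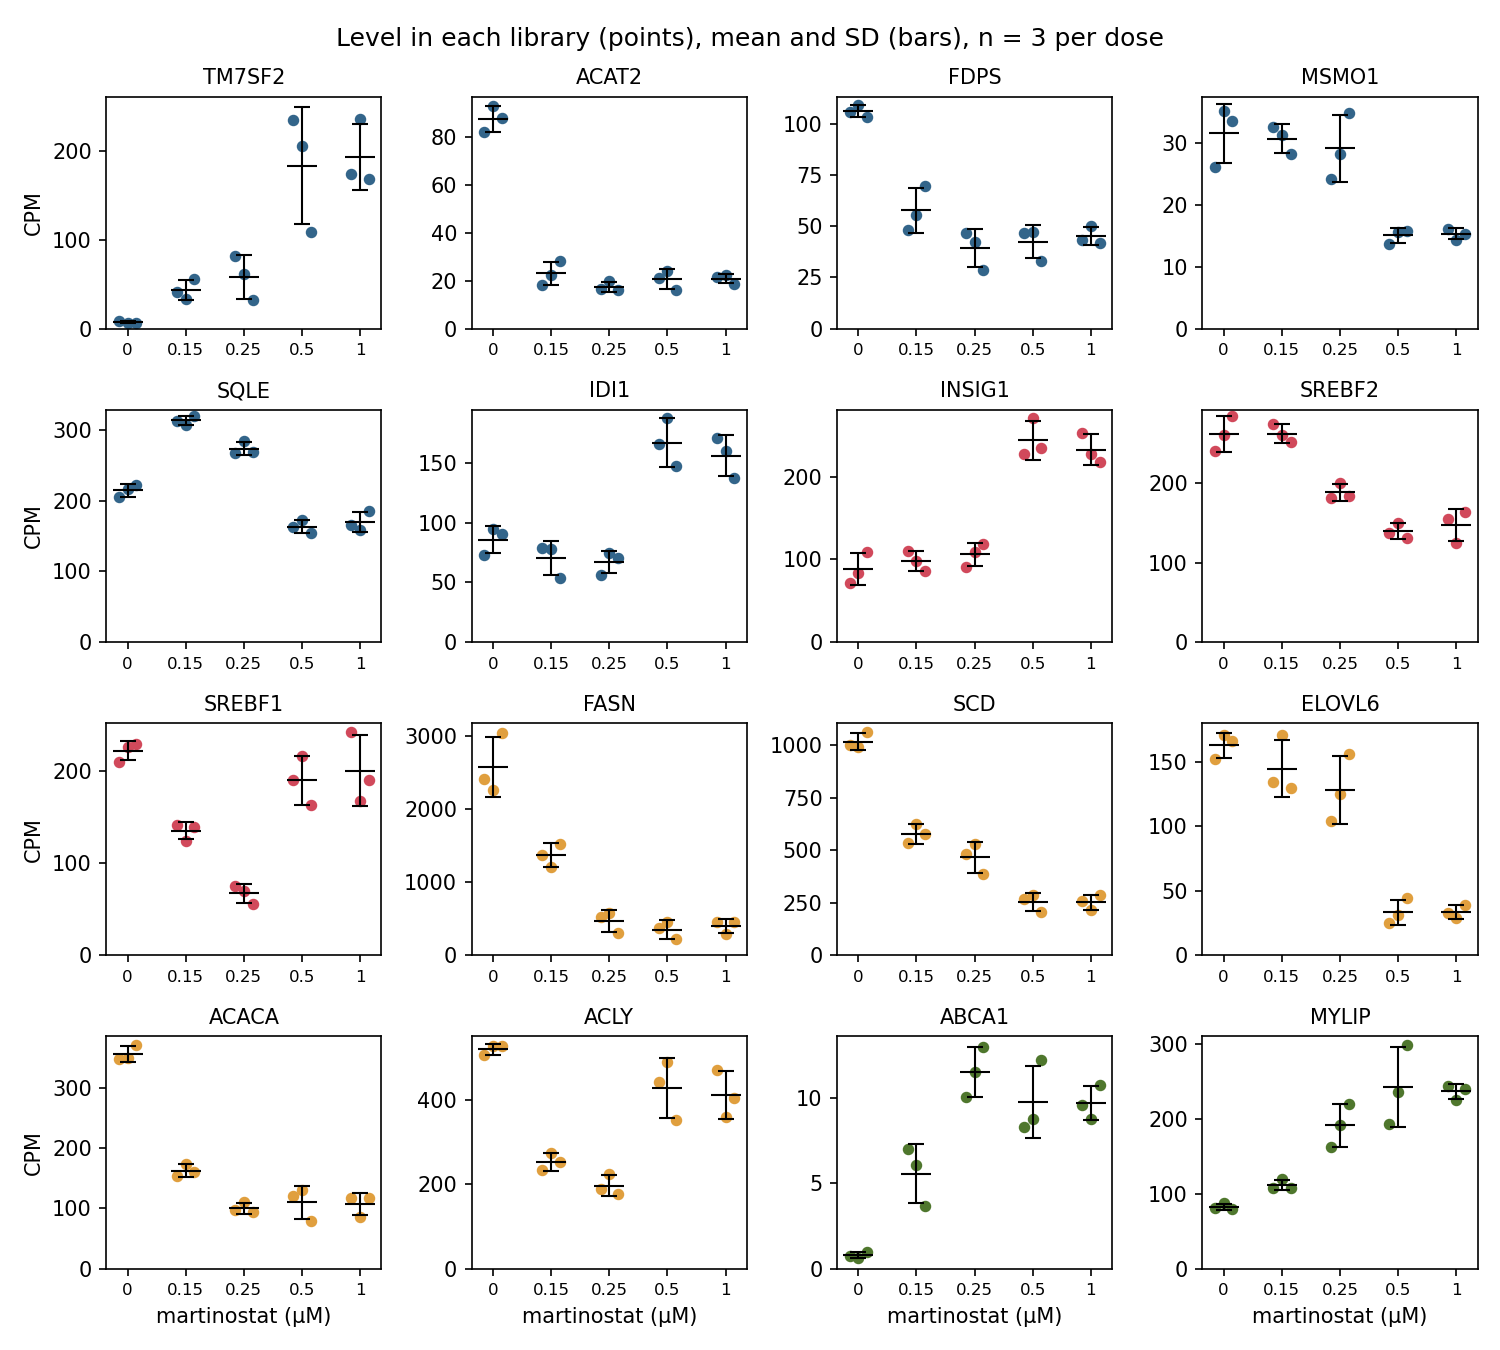
CPM (vertical axes, each from 0) of 16 members in every library (points) by martinostat dose in µM (0 is untreated), with the mean and SD of 3 libraries as bars. ACAT2, FDPS and ACACA were low from the lowest dose, MSMO1 and ELOVL6 only from 0.5 µM, SREBF1 and ACLY were lowest at 0.25 µM, and TM7SF2, IDI1 and INSIG1 rose between 0.25 and 0.5 µM.

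Among the SREBP regulators, INSIG1 rose and SREBF2 fell, while INSIG2 and SCAP were not called. INSIG1, the sterol-regulated anchor of SCAP, was at 71.0, 83.3 and 108.9 CPM in untreated cells, 110.5, 98.1 and 86.0 at 0.15 µM, 91.0, 108.4 and 118.2 at 0.25 µM, 227.1, 270.6 and 234.1 at 0.5 µM and 253.2, 226.9 and 217.7 at 1 µM. The first 3 groups overlapped and the 6 libraries of the higher doses lay above all others. Against untreated cells the log2 fold change was 0.27 ± 0.16 at 0.25 µM (adjusted p = 0.157, edgeR) and 1.41 ± 0.17 at 1 µM (4.73e-07), and between 0.25 and 0.5 µM it was 1.204 ± 0.16 (1.76e-05).

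SREBF2 encodes the SREBP factor that acts mainly on sterol genes, and its promoter above holds the sterol regulatory element. Its libraries held 240.3, 261.4 and 284.9 CPM untreated, 275.4, 260.6 and 251.7 at 0.15 µM, 181.1, 200.4 and 184.3 at 0.25 µM, 137.4, 150.4 and 131.0 at 0.5 µM and 155.4, 125.0 and 163.5 at 1 µM. The 0.15 µM libraries lay within the untreated range and all libraries of the 3 higher doses below it. The fitted log2 fold change was 0.00 ± 0.13 at 0.15 µM (adjusted p = 0.994, edgeR), -0.48 ± 0.14 at 0.25 µM (0.00505) and -0.83 ± 0.14 at 1 µM (2.86e-05). The value at 0.25 µM was 0.05 under library totals, while the falls at 0.5 and 1 µM were called under all alternatives.

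SREBF1, which encodes the factor that acts mainly on fatty acid genes, followed another course. Its values are given for each library because of that course, a choice made after they were seen. SREBF1 was at 209.8, 226.3 and 228.9 CPM in untreated cells, 141.3, 124.3 and 139.1 at 0.15 µM, 75.7, 69.8 and 56.1 at 0.25 µM, 190.5, 215.9 and 162.6 at 0.5 µM and 242.5, 167.4 and 190.1 at 1 µM. The libraries at 0.15 and 0.25 µM lay below all untreated ones, and those at 0.5 and 1 µM overlapped them. Its log2 fold change was -0.72 ± 0.16 at 0.15 µM (adjusted p = 0.000989, edgeR) and -1.72 ± 0.16 at 0.25 µM (4.21e-08), then 1.497 ± 0.16 between 0.25 and 0.5 µM (1.19e-06) and -0.15 ± 0.16 at 1 µM against untreated cells (0.424). The deposited counts are per gene, so the promoters and isoforms of SREBF1 cannot be told apart.

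SCAP, the escort of the SREBP precursors, held 229.4, 231.7 and 257.8 CPM in untreated libraries, 262, 235 and 247.7 at 0.15 µM, 245.9, 271.3 and 156.4 at 0.25 µM, 239.9, 297.3 and 181.7 at 0.5 µM and 264.6, 236.3 and 289.1 at 1 µM. Replicate 3 at 0.25 µM and replicate 3 at 0.5 µM were the lowest of all libraries, and the groups overlapped. INSIG2, the second anchor, held 8.55, 11.2 and 10.5 CPM untreated, 10.8, 10.2 and 10.7 at 0.15 µM, 12.1, 11.2 and 16.0 at 0.25 µM, 11.5, 11.0 and 16.7 at 0.5 µM and 12.3, 11.1 and 13.6 at 1 µM. At 1 µM the log2 fold changes were 0.14 ± 0.19 for SCAP (adjusted p = 0.548, edgeR) and 0.29 ± 0.20 for INSIG2 (0.203). With library totals both were called higher, at 0.49 and 0.64. STARD4, a sterol carrier, was called higher at 0.25 µM alone (0.85 ± 0.26), where its replicate 3 held 83.9 CPM against 42.6 and 49.8, and the call was lost without that library (0.52).

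Fatty acid synthesis held the most abundant of the 34 messages. Per kilobase of exon, FASN, SCD and ACLY led the untreated cells at 276, 194 and 99.7 CPM. At 1 µM ACLY was highest at 79.0 CPM per kilobase, followed by MYLIP at 77.0 and INSIG1 at 63.7, and FASN was at 43.1.

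FASN, the synthase that builds palmitate, was at 2418, 2264 and 3038 CPM in untreated cells, 1379, 1202 and 1527 at 0.15 µM, 523.5, 579.1 and 304.2 at 0.25 µM, 380.1, 462.3 and 216.4 at 0.5 µM and 451.1, 294.3 and 460.6 at 1 µM. The untreated, 0.15 µM and higher-dose libraries formed 3 ranges that did not overlap. In the edgeR fit the log2 fold change was -0.91 ± 0.27 at 0.15 µM (adjusted p = 0.00885, edgeR), -1.55 ± 0.27 from 0.15 to 0.25 µM (0.00146) and -2.68 ± 0.28 at 1 µM (1.64e-07), where FASN was at 0.156 of the untreated level. The fall at each dose was called under all alternatives.

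ACACA, the acetyl-CoA carboxylase that makes malonyl-CoA, had 347.2, 349 and 370.4 CPM untreated, 153, 174.1 and 159.9 at 0.15 µM, 96.9, 110.0 and 93.3 at 0.25 µM, 121, 130.2 and 79.2 at 0.5 µM and 116.8, 86 and 117.4 at 1 µM. The treated libraries all lay below the untreated ones, and those at 0.15 µM above all at the 3 higher doses. The fitted log2 fold change was -1.13 ± 0.17 at 0.15 µM (adjusted p = 2.32e-05, edgeR) and -1.74 ± 0.18 at 1 µM (5.95e-08). SCD, the stearoyl-CoA desaturase, went down in 2 steps. Its untreated libraries held 1000, 990.2 and 1063 CPM, and it was at 532.7, 627.2 and 576.9 at 0.15 µM, 483.8, 529.2 and 386.8 at 0.25 µM, 269.2, 285.1 and 204.8 at 0.5 µM and 259.5, 214.8 and 285 at 1 µM. The untreated range, the range of both lower doses and the range of both higher doses did not overlap. Its log2 fold change was -0.81 ± 0.17 at 0.15 µM (adjusted p = 0.000462, edgeR), -0.88 ± 0.17 from 0.25 to 0.5 µM (0.000476) and -2.01 ± 0.17 at 1 µM (5.99e-09).

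ELOVL6, the elongase that extends palmitate, changed between 0.25 and 0.5 µM. It had 152.1, 170.8 and 165.9 CPM in untreated libraries, 134.1, 170.6 and 129.8 at 0.15 µM, 103.8, 124.9 and 156 at 0.25 µM, 25.2, 31.0 and 44.2 at 0.5 µM and 32.8, 28.7 and 39.4 at 1 µM. The first 3 groups overlapped, and the 6 libraries of the higher doses all lay below them. In the edgeR fit the log2 fold change was -0.35 ± 0.19 at 0.25 µM (adjusted p = 0.130, edgeR), -1.94 ± 0.20 from 0.25 to 0.5 µM (7.43e-07) and -2.28 ± 0.20 at 1 µM (1.10e-08). The value at 0.25 µM changed sign under library totals, where it was 0.20.

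FADS1 and FADS2, the desaturases of polyunsaturated fatty acids, were called lower from 0.25 µM. FADS1 went from 166.2 ± 9.74 CPM untreated to 84.6 ± 7.77 at 0.25 µM and 54.0 ± 2.93 at 1 µM, with a log2 fold change of -1.62 at 1 µM. FADS2 went from 46.0 ± 3.55 to 23.4 ± 6.35 and 24.3 ± 2.10 CPM, with -0.92 at 1 µM.

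ACLY, which splits citrate to supply acetyl-CoA to both routes, is given for each library because of its course, again chosen after its values were seen. It held 504.5, 526.6 and 525.8 CPM untreated, 232.2, 274.6 and 252.2 at 0.15 µM, 188.2, 225 and 176.3 at 0.25 µM, 441.4, 489.3 and 350.6 at 0.5 µM and 471, 358.9 and 404.3 at 1 µM. All treated libraries were below the untreated ones, and both higher doses were above both lower doses. The fitted log2 fold change was -1.40 ± 0.16 at 0.25 µM (adjusted p = 4.37e-07, edgeR), 1.12 ± 0.16 from 0.25 to 0.5 µM (2.56e-05) and -0.34 ± 0.16 at 1 µM against untreated cells (0.0672). Under library totals the value at 1 µM was 0.02.

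Of the efflux genes, both exporters were low or absent in untreated cells, while MYLIP was not. ABCG1, a cholesterol exporter, had 0 counts in all 3 untreated libraries. Its treated libraries were at 1.34, 1.55 and 0.964 CPM at 0.15 µM, 3.29, 3.54 and 2.13 at 0.25 µM, 9.85, 11.3 and 7.29 at 0.5 µM and 10.6, 9.15 and 11.4 at 1 µM. Against a floor of 3 counts over the untreated group, ABCG1 was 32.4-fold higher at 0.15 µM and 263-fold higher at 1 µM. The lower 95% limits of these ratios from counting alone were 25.9 and 213. No p is given for these differences, since only the treated libraries brought ABCG1 into the test. The 4 doses did not overlap up to 0.5 µM, with log2 fold changes of 1.209 ± 0.28 from 0.15 to 0.25 µM and 1.67 ± 0.26 from 0.25 to 0.5 µM.

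ABCA1, the exporter that loads cholesterol onto apolipoprotein particles, had 0.736, 0.618 and 0.978 CPM in untreated libraries, 7.00, 6.04 and 3.65 at 0.15 µM, 10.0, 11.5 and 13.0 at 0.25 µM, 8.30, 8.74 and 12.2 at 0.5 µM and 9.58, 8.74 and 10.7 at 1 µM. Every treated library was above every untreated one, and the 3 higher doses overlapped. Its log2 fold change was 2.83 ± 0.28 at 0.15 µM (adjusted p = 1.56e-07, edgeR), 1.05 ± 0.24 from 0.15 to 0.25 µM (0.00766) and 3.63 ± 0.29 at 1 µM (1.92e-09). In absolute terms both pumps stayed low, at 0.854 and 1.70 CPM per kilobase for ABCA1 and ABCG1 at 1 µM.

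MYLIP, a ubiquitin ligase that marks lipoprotein receptors for degradation, was well expressed before treatment. It held 81.1, 87.1 and 79.7 CPM in untreated cells, 108.2, 119.8 and 108.2 at 0.15 µM, 162.4, 191.7 and 219 at 0.25 µM, 192.6, 236.2 and 298.9 at 0.5 µM and 243.6, 225.5 and 240.3 at 1 µM. The untreated, 0.15 µM and higher-dose libraries did not overlap. In the edgeR fit the log2 fold change was 0.44 ± 0.16 at 0.15 µM (adjusted p = 0.0246, edgeR), which was lost without untreated replicate 1 or 3 or 0.15 µM replicate 2, and 1.52 ± 0.16 at 1 µM (9.85e-08).

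Doses were also compared with each other. From 0.15 to 0.25 µM 3 members were called higher and 6 lower, against 12.3% of all tested genes called (4.96% higher, 7.32% lower). The filter of 10 counts in every library left 14096 genes, of which 15.7% were called (6.95% higher, 8.75% lower). The 3 higher members were the efflux genes, and the 6 lower ones CYP51A1, SREBF1, SREBF2, FASN, ACACA and FADS1. The call of CYP51A1 was lost without most single libraries and that of SREBF2 without any of 4, and both were lost under all 3 other scalings. From 0.25 to 0.5 µM 8 were higher (MVD, IDI1, LSS, TM7SF2, INSIG1, SREBF1, ACLY and ABCG1) and 6 lower (SQLE, MSMO1, SREBF2, SCD, FADS1 and ELOVL6), with 30.4% of all genes called (14.4% higher, 16% lower). Of the 14096 genes left by the filter 40.9% were called between 0.25 and 0.5 µM (19% higher, 21.9% lower). Same-numbered libraries deviated together between these groups. With the replicate number as a block in the fit of all libraries STARD4 was also called lower and the other calls were as before. A fit of the 2 groups alone called 12 members without the block, MVD and SREBF2 being lost, and 18 with it, which added MVK and MYLIP (higher) and STARD4 and FASN (lower) to the 14. Without replicate 3 at both doses 15 members were called. The call of SREBF2 was lost without 0.25 µM replicate 2 or 0.5 µM replicate 1.

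**Figure D4:**
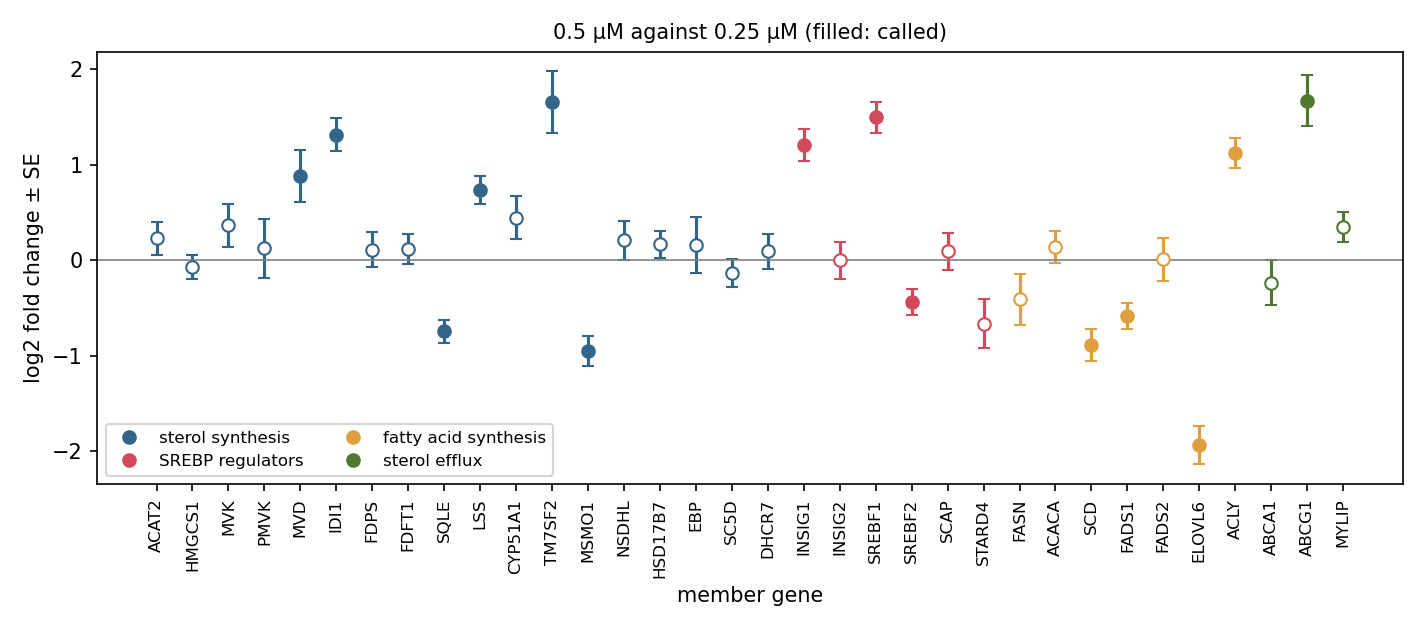
Log2 fold change ± SE of each member at 0.5 µM against 0.25 µM, coloured by list, with filled points where the change was called. IDI1, TM7SF2, INSIG1, SREBF1, ACLY and ABCG1 were more than 1 log2 unit higher at 0.5 µM, and ELOVL6 was at -1.94.

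From 0.15 to 1 µM 9 members were called higher and 9 lower, against 44.5% of all tested genes (21.5% higher, 23.1% lower). Of the 14096 genes with at least 10 counts in every library 53.7% were called (25% higher, 28.7% lower). All 7 fatty acid genes were called, ACLY higher and the other 6 lower, though FADS2 lost its call without any of 5 libraries and ACACA without 1 µM replicate 2. Between 0.5 and 1 µM edgeR called 0 of the 34 genes and 0 of all tested genes. An unadjusted edgeR p under 0.05 was reached by 0 members and by 372 of the 23711 tested genes (1.57%). The absence of calls does not show that the 2 doses were equal. DESeq2 also called 0 members. The differences ran from -0.15 (HSD17B7) to 0.22 (MVK) on the log2 scale, with SEs of 0.12 for SQLE and 0.32 for TM7SF2.

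**Figure D5:**
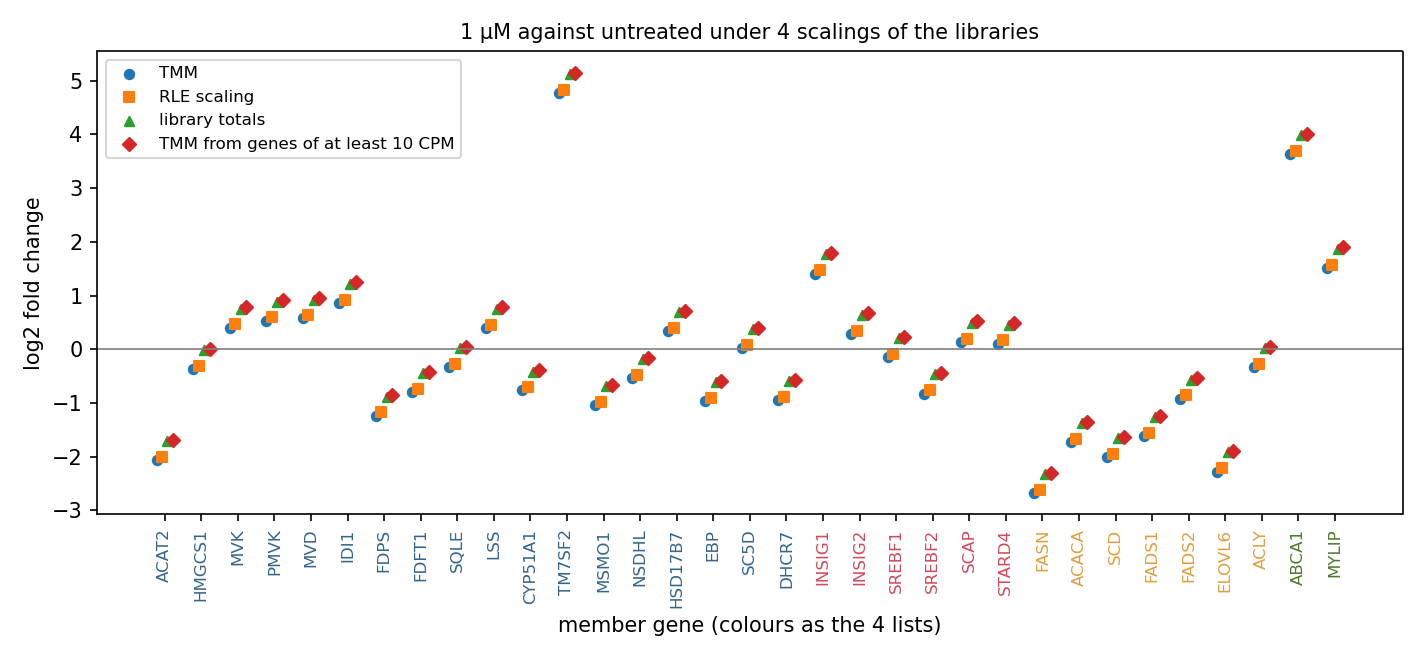
Log2 fold change of 33 members at 1 µM against untreated cells under 4 scalings of the libraries (symbols), ABCG1 being left out because its untreated counts were 0. Library totals and TMM on genes of at least 10 CPM lifted all genes by nearly the same amount, which took SQLE, SREBF1 and ACLY above 0 under both and HMGCS1 under the second only, at 0.01. The other 29 genes kept their signs.

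Other genes around the pathway came from lists chosen with earlier results of these data known. The counts that follow do not leave out SCD5, ELOVL3, ELOVL4 and ABCG4, which entered the test only through their treated libraries. At 1 µM 1 of 9 further genes of SREBP processing was called higher and 7 lower, 0 and 5 of 7 isoprenoid genes, 14 and 11 of 27 genes of fatty acid synthesis and activation, and 8 and 4 of the 16 tested genes of sterol transport, storage and LXR, when 38.8% of all tested genes were called higher and 27.5% lower. Among the genes whose mean reached 10 CPM 26.5% were called higher and 48.4% lower. By the rule for named genes, the largest rises were those of ELOVL4, an elongase of very long chains (0.21 ± 0.13 to 24.0 ± 2.62 CPM), MLXIPL, which encodes the glucose-responsive factor ChREBP (2.19 ± 0.21 to 57.5 ± 6.49), and ACACB, the carboxylase of the mitochondrial surface (4.15 ± 0.19 to 45.2 ± 4.22). The largest falls were those of PDSS1, which starts the ubiquinone side chain (48.8 ± 2.27 to 7.76 ± 1.25 CPM), ERLIN1, which restrains SREBP in the endoplasmic reticulum (38.3 ± 1.25 to 9.41 ± 1.34), and TMEM97, a sterol-regulated membrane protein (151.5 ± 15.4 to 46.8 ± 5.32). ELOVL4 entered the test only through its treated libraries. The other 5 were called at all 4 doses by edgeR.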

How the data were processed

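The table of raw counts per gene was deposited by the authors. According to the submitters' processing notes it was made with Trim Galore 0.6.10, Trimmomatic, HISAT2 2.2.1, SAMtools 1.21 and featureCounts 1.5.3 on hg38 with a GENCODE annotation, and the strand setting of the counting is not stated. FPKM tables of the single libraries were not used. Groups and replicates came from the sample labels.

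Genes with too few counts were removed with the filterByExpr function of edgeR 4.0.16 (R 4.3.3), which left 23711 of 60649, and library sizes were scaled by TMM. A single quasi-likelihood fit of all 15 libraries gave each comparison, with p-values adjusted by Benjamini-Hochberg over all tested genes. Each SE was derived afterwards, as the absolute log2 fold change divided by the square root of the F statistic. The common dispersion was 0.052 and 10 residual degrees of freedom remained. The step was tested on simulated counts in which few genes changed. In these data most genes were called against untreated cells, so that test does not bear on the choice of scaling. Library totals ran from 23755510 to 32805574, and a count of 0 in a group was given a floor of 3 counts. Replicates differed by more than counting noise in every pair (chi-square of 6.49 or more for each degree of freedom). Alternatives were 3 other scalings, 2 other filters, DESeq2 1.42.0, a fit of the compared groups alone, a replicate block and leaving out each library. Same-numbered libraries deviated together between 0.25 and 0.5 µM (r = 0.266, 0.268 and 0.579) and in no other pair of groups (r of 0.0918 or lower).

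The members, lists and tests were chosen with earlier results of these data known. Values in every library are given for up to 4 called members per list with the largest change at 1 µM, for members called in opposite directions at 0.15 and 1 µM, and for members never called against untreated cells. Of the other pathway genes, the 3 highest and 3 lowest changes at 1 µM among called genes whose mean reached 10 CPM are named. Some marker genes are not reported here.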

Additional observations from a re-analysis of the deposited data

How the results depend on the processing

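Scaling moved the results most. With library totals the members called higher were 12, 12, 13 and 13 from 0.15 to 1 µM, with 7 called lower at 0.15 µM, when 40.4%, 49.3%, 46.8% and 45.6% of all tested genes were higher and 8.93% lower at 0.15 µM. When TMM factors came only from genes of at least 10 CPM, 10, 14 and 14 were higher from 0.25 to 1 µM and 7 lower at 0.15 µM, against 47.2%, 48.1% and 46.8% of all tested genes higher and 12.2% lower. From 0.15 to 1 µM the sterol synthesis median was 0.247, 0.177, -0.0252 and -9.55e-06 under library totals. Under the second TMM it was 0.148, 0.0746, 0.00698 and 0.027, and RLE gave -0.16 at 0.15 µM. In the same order of scalings, the regulator medians were 0.417, 0.61, 0.487 and 0.475, and 0.317, 0.504, 0.512 and 0.502. The fatty acid medians were -0.454, -0.613, -1.35 and -1.38, and -0.555, -0.714, -1.3 and -1.36. The efflux medians, each the value of ABCA1 because ABCG1 ranked above it, were from 0.25 µM 4.42, 4.05 and 3.98, and 4.3, 4.07 and 4.01. Over the 4 scalings the sign differed in 9, 9, 5 and 4 of the 34 members from 0.15 to 1 µM. Among members called under TMM, signs turned for HMGCS1 (0.1944 and 0.0815 at 0.25 µM, 0.0004 at 0.5 µM and 0.0084 at 1 µM), SQLE (0.0136 at 0.5 µM, 0.0189 and 0.0456 at 1 µM), LSS (0.1606 and 0.0483 at 0.25 µM) and SREBF2 (0.0509 at 0.25 µM). Among those not called, SREBF1 and ACLY turned at 0.5 and 1 µM, and SC5D changed sign at 1 µM, from -0.0574 to 0.0869 when single libraries were left out.

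With the exon length trend as a covariate, added after the data were seen, 14 members were called between 0.15 and 0.25 µM in place of 9, when the share of all genes called went from 12.3% to 17.3%. With the replicate block 16, 23, 25 and 25 members were called against untreated cells, as without it, and 12, 15, 0 and 19 between doses. In a fit of 0.25 and 0.5 µM alone 12 members were called without the block and 18 with it. Of the 25 members called at 1 µM, 18 kept the call under all alternatives. The causes were not tested.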

Other observations

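Several fatty acid enzymes that fell have relatives that rose, and the pairs were chosen after their values were seen. SCD5, the second human stearoyl-CoA desaturase, had 0 counts in the untreated libraries. It stood at 6.61 ± 1.33 CPM at 0.15 µM and 13.2 ± 1.34 at 1 µM. Against a floor of 3 counts over the untreated group SCD5 was 167-fold and 335-fold higher. The lower 95% limits from counting alone were 135 and 272. SCD remained the higher of the pair at 1 µM, at 48.3 against 3.13 CPM per kilobase of exon. ACACB was at 0.286 CPM per kilobase in untreated cells and 3.11 at 1 µM, when ACACA went from 27.3 to 8.20. FADS3 rose from 37.5 ± 2.98 to 166.5 ± 43.6 CPM, when FADS1 and FADS2 fell. Among the elongases ELOVL3 rose from 0.157 ± 0.13 to 15.2 ± 5.60 CPM, and ELOVL5 fell from 330.8 ± 29.1 to 198 ± 10.9. ACACB, FADS3 and ELOVL5 were called at 1 µM by edgeR, while SCD5 and ELOVL3 entered the test only through the treated libraries and their calls are not given.

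Sterol handling outside the efflux list was mixed. NPC2, the lysosomal cholesterol carrier, rose from 6.16 ± 1.69 to 50.3 ± 5.00 CPM, NPC1, its membrane partner, from 64.8 ± 4.48 to 120.2 ± 9.53 and ABCA2 from 38.4 ± 3.00 to 122 ± 24.3. NR1H3, which encodes an LXR, rose from 16.6 ± 0.96 to 32.5 ± 7.48 CPM, while its relative NR1H2 fell from 73.8 ± 7.19 to 42.5 ± 5.12 and RXRA, the shared partner, from 146.4 ± 7.31 to 46.6 ± 4.94. SCARB1, a lipoprotein receptor, fell from 196.8 ± 12.2 to 67.5 ± 10.5 CPM. ABCG4 had 0 counts untreated and was at 3.85 ± 0.29 CPM at 1 µM. ABCG4 entered the test only through the treated libraries, the others were called at 1 µM by edgeR, and all were named after their values were seen.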
